A study of Mus musculus with 4 samples.

Results

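Resident and activated fibroblast genes are described here in mouse lung carrying 4T1 metastases. The members were chosen by gene symbol from the deposited table of read counts per gene. They were Tcf21, Inmt, Mfap4, Dpt and Pi16 for the resting fibroblasts of the lung, Fap, Acta2 and Tagln for activated fibroblasts, and Dcn and Lum, matrix proteoglycan genes of both. All 10 symbols were found among 56748 listed genes, and all 10 had enough counts to be tested.

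The libraries came from female BALB/cJ mice that received 4T1-FLuc cells, a luciferase-expressing line of the mouse triple-negative breast cancer (TNBC) model 4T1, through the tail vein at 7 weeks of age. The saline group gave 2 libraries, and the sample labels name PBS as its buffer. The cmLumiOpto/PARPi group gave 2 libraries from mice treated with the mitochondrial gene therapy cmLumiOpto, its light-emitting substrate ViviRen at 2 mg/kg and olaparib, an inhibitor of the DNA repair enzyme PARP, at 50 mg/kg, and lungs were collected after 3 weeks. The vector was an exosome-associated AAV carrying an antibody to CD276, with a cfos promoter, and every mouse of both groups carried the same tumour line, so no library is from healthy lung. Each group held 5 mice in the study. The sources used here do not say that a library is 1 mouse, so p-values measure only the spread between these libraries.

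Lung fibroblasts build and maintain the connective tissue of the airspaces and of the sheaths around vessels and airways. At rest those of the alveolar wall express the transcription factor gene Tcf21, and those of the sheaths express Pi16. In wounds, fibrosis and tumour stroma, fibroblasts take on an activated state in which they make the surface protease FAP, fibrillar collagen and, as myofibroblasts, the smooth muscle actin encoded by Acta2. Acta2 and Tagln are also expressed by smooth muscle cells and pericytes, so neither marks fibroblasts alone.

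The resident genes lay higher after cmLumiOpto/PARPi and the activated and matrix genes lower. In bulk tissue, fewer cells of a type and less RNA per cell cannot be told apart. The mean log2 CPM of 9 alveolar type 2 cell markers was also higher after treatment, 8.22 and 7.07 against 6.68 and 5.22, and their part in the result was not tested. Of the 5 resident genes, 4 were higher in both cmLumiOpto/PARPi libraries than in both saline libraries, and the groups of Mfap4 overlapped. Of the 5 other members, all were lower in CPM in both cmLumiOpto/PARPi libraries. For Tagln and Fap this rested on few reads. Tagln had 17 and 16 counts in the saline libraries against 17 and 11, and Fap had 40 and 30 against 32 and 22. Over the 15167 genes tested, the groups did not overlap in 55.2%, with 27.4% higher and 27.8% lower after treatment. With library size only as the scaling, the groups of Dcn overlapped too, leaving 4 members lower without overlap. None of the 10 members passed an adjusted p of 0.05 by the quasi-likelihood test of edgeR (Benjamini-Hochberg), as no gene did (0.00% of those tested; smallest adjusted p = 0.138). At an unadjusted p under 0.05 there were 6 members, with Tcf21, Inmt, Dpt and Pi16 higher and Acta2 and Lum lower, against 21.2% of all genes, 9.21% higher and 12.0% lower. DESeq2 passed 3 members at an adjusted p under 0.05, Tcf21, Dpt and Lum, against 6.67% of all genes. An exact permutation of 2 libraries against 2 cannot give a two-sided p below 0.333.

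**Figure D1:**
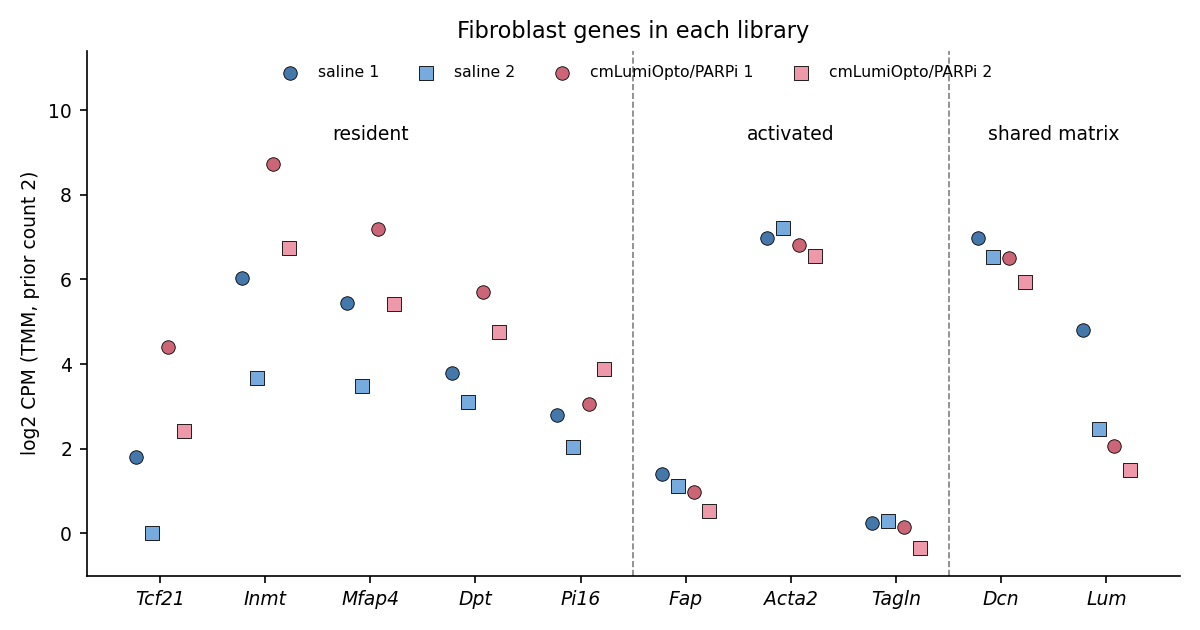
Level of each gene in each library, as log2 CPM on the vertical axis, with saline libraries in blue and cmLumiOpto/PARPi libraries in red (circles replicate 1, squares replicate 2). Tcf21, Inmt and Mfap4 spread widely within each group, and Dpt and Pi16 less so. Acta2 stays between 6.56 and 7.22, and Tagln lies between -0.35 and 0.28.

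Library totals ran from 15263375 to 16755228 counts. A floor of 3 counts corresponded to 0.173 to 0.204 CPM, the count scaled by library size and TMM factors, and all members lay above it in every library. Counting error alone understates the spread, since the 2 saline libraries differed by 25.4 times counting noise, taken as chi-square per degree of freedom, and the cmLumiOpto/PARPi libraries by 45.4 times. Positions are those of the deposited table. All 10 differed from GRCm38, the build in the study's methods, with the same span, and the submitters' processing notes list mm39, so they are given as mm39 positions and were not checked against that build.

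Inmt, which encodes an N-methyltransferase abundant in lung, was the most abundant resident gene per kilobase in every library. Inmt (ENSMUSG00000003477, chromosome 6 from 55147611 to 55152028, minus strand) had 65.0 and 12.7 CPM in the saline libraries and 421 and 107 CPM in the cmLumiOpto/PARPi libraries. Both cmLumiOpto/PARPi libraries lay above both saline libraries, but the libraries of 1 group differed by 5.13 times in saline and 3.94 times after treatment. The fitted log2 fold change was 2.76 (standard error 0.92), or 6.78 times (adjusted p = 0.188, edgeR). Without saline replicate 1 it was 4.36, and without cmLumiOpto/PARPi replicate 1 it was 1.45.

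Tcf21, a transcription factor gene needed for lung mesenchyme to form, followed the same order of libraries at a lower level. Tcf21 (ENSMUSG00000045680, chromosome 10 from 22693180 to 22696073, minus strand) had 3.39 and 0.886 CPM in the saline libraries, from 54 and 13 counts, and 21.0 and 5.23 CPM in the cmLumiOpto/PARPi libraries, from 365 and 87 counts. The groups did not overlap. The log2 fold change was 2.61 (standard error 0.86, adjusted p = 0.184, edgeR), and it ranged from 1.28 without cmLumiOpto/PARPi replicate 1 to 3.86 without saline replicate 1. Per kilobase, Inmt stood 28.2 and 21.0 times above Tcf21 in the saline libraries and 29.4 times above it in cmLumiOpto/PARPi replicate 1, with nearly the same ratio in replicate 2. The level of both genes differed several-fold between libraries, while their ratio stayed within that narrow range, with 13 Tcf21 counts behind its lowest value. The ratios to Mfap4 were less even. Inmt over Mfap4 was 1.80 and 1.39 in the saline libraries, against 3.46 and 3.01 in the cmLumiOpto/PARPi libraries. Tcf21 over Mfap4 was 0.0639 and 0.0661 in the saline libraries, against 0.118 and 0.101 in the cmLumiOpto/PARPi libraries.

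Mfap4 and Dpt encode matrix proteins, MFAP4 at elastic fibres and dermatopontin at collagen fibrils. Mfap4 (ENSMUSG00000042436, chromosome 11 from 61376257 to 61379726, plus strand) had 43.3 and 11.0 CPM in the saline libraries and 146 and 42.6 CPM in the cmLumiOpto/PARPi libraries. The lower cmLumiOpto/PARPi library thus lay just under the higher saline library. Its log2 fold change was 1.79 (standard error 0.78, adjusted p = 0.257, edgeR), with 0.64 without cmLumiOpto/PARPi replicate 1 and 3.09 without saline replicate 1. The exons of Mfap4 share 89 bases, or 4.63% of their length, with Mapk7 on the opposite strand. Dpt (ENSMUSG00000026574, chromosome 1 from 164624213 to 164651835, plus strand) had 13.8 and 8.45 CPM in the saline libraries and 51.9 and 26.9 CPM in the cmLumiOpto/PARPi libraries. Its groups were apart and its spread within a group was the smaller, 1.63 times in saline and 1.93 times after treatment. The log2 fold change of Dpt was 1.82 (standard error 0.39, unadjusted p = 0.00387, adjusted p = 0.138, edgeR), from 1.27 to 2.20 with any 1 library left out.

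Pi16, a peptidase inhibitor gene of fibroblasts around vessels, had a different order of libraries. Pi16 (ENSMUSG00000024011, chromosome 17 from 29536654 to 29549567, plus strand) had 6.84 and 4.02 CPM in the saline libraries and 8.17 and 14.7 CPM in the cmLumiOpto/PARPi libraries. The highest value was in cmLumiOpto/PARPi replicate 2, whereas the other resident genes were highest in cmLumiOpto/PARPi replicate 1. Its log2 fold change was 1.07 (standard error 0.42, adjusted p = 0.228, edgeR), and 0.57 without cmLumiOpto/PARPi replicate 2.

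Promoter sequence was at hand from RefSeq (GRCm38.p6) for 5 of the 10 members, Tcf21, Inmt, Dpt, Pi16 and Acta2. The 250 bases before the annotated start are printed for 3 resident genes that lay higher without overlap and for Acta2, which lay lower, so that their sequence can be compared. Each is written 5′ to 3′ on the gene's strand, and capitals mark 3 motifs searched on both strands: the TATA box TATAAA, the E-box CAGCTG, and the CArG box, the serum response factor motif of contractile genes, allowing 1 G or C among its 6 central A or T letters. No motifs overlapped in these windows.
Inmt promoter, chr6:55174991-55175240, minus strand: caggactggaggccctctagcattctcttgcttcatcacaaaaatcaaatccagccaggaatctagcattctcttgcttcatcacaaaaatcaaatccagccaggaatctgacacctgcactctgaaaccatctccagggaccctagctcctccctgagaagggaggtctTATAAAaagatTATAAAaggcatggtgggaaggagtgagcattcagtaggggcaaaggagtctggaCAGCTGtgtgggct
Tcf21 promoter, chr10:22820144-22820393, minus strand: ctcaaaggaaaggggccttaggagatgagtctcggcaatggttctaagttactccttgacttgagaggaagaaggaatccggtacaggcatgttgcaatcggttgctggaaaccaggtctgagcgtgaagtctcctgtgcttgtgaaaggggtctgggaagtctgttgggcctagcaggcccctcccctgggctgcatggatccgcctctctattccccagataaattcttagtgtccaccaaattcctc
Dpt promoter, chr1:164796413-164796662, plus strand: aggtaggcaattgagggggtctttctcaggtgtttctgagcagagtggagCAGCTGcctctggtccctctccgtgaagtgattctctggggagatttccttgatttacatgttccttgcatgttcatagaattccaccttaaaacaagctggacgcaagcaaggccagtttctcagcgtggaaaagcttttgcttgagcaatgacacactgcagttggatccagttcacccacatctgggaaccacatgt
Acta2 promoter, chr19:34255374-34255623, minus strand: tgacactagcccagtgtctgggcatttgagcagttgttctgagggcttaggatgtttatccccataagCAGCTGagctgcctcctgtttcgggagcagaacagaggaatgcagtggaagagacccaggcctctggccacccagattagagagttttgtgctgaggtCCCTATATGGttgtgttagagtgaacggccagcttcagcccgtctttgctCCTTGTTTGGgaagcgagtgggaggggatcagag

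The Inmt window held 2 TATA boxes, first base 80 and 69 bases before the start, and an E-box 14 bases before it. Its far end was a direct repeat of 49 bases, with overlapping copies beginning 235 and 189 bases before the start. The Tcf21 window held none of the motifs, and that of Dpt held an E-box 200 bases before the start. The Acta2 window held an E-box 182 bases before the start and 2 CArG-like runs, CCCTATATGG at 84 bases and CCTTGTTTGG at 34 bases, but no CArG box without a mismatch. The Pi16 window held none of them. Of 32851 RefSeq windows of this length, 12.4% held the TATA box, 13.0% the E-box, 8.59% the CArG box with up to 1 mismatch and 1.47% the CArG box without one. No motif was thus shared by all the resident windows at hand, those of Tcf21, Inmt, Dpt and Pi16. Inmt and Dpt both held the E-box, and Mfap4 had no window.

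**Figure D2:**
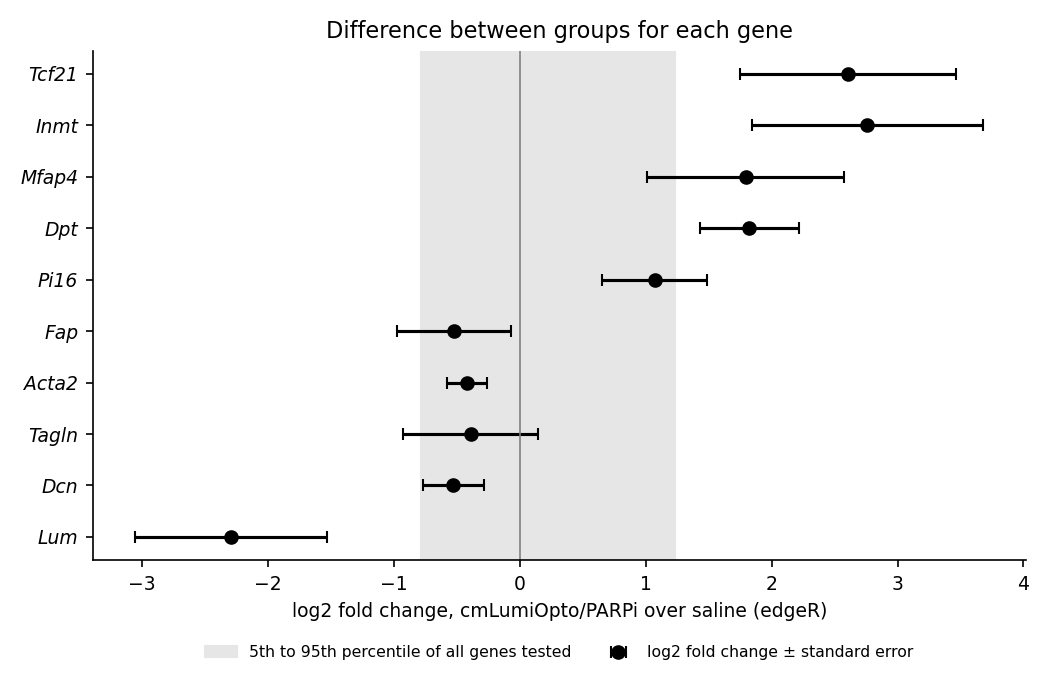
Fitted log2 fold change of each gene between cmLumiOpto/PARPi and saline, with its standard error as bars and the 5th to 95th percentile of all tested genes (-0.78 to 1.23) shaded. Tcf21, Inmt, Mfap4 and Dpt lie above the shaded range, Lum lies below it, and the other 5 genes lie inside it.

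Acta2, the smooth muscle actin gene of myofibroblasts and vessel walls, varied little within a group. Acta2 (ENSMUSG00000035783, chromosome 19 from 34218490 to 34232990, minus strand) had 126 and 149 CPM in the saline libraries and 112 and 94.0 CPM in the cmLumiOpto/PARPi libraries. The groups did not overlap and differed little, by 1.34 times. The log2 fold change was -0.42 (standard error 0.16, unadjusted p = 0.0412, adjusted p = 0.220, edgeR), from -0.55 to -0.31 with any 1 library left out. Acta2 shares much of its coding sequence with the other actin genes, so how the authors' counting placed shared reads could change its level.

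Fap and Tagln were near the low end of what these libraries measure. Fap (ENSMUSG00000000392, chromosome 2 from 62331287 to 62404419, minus strand), the gene of the fibroblast activation protein, gave 40 and 30 counts under saline, against 32 and 22 under cmLumiOpto/PARPi. These are 2.51 and 2.04 CPM against 1.84 and 1.32 CPM, without overlap. The log2 fold change was -0.52 (standard error 0.45, adjusted p = 0.534, edgeR), and -0.33 without cmLumiOpto/PARPi replicate 2. The exact Poisson 95% interval, which covers counting error only, ran from 28.6 to 54.5 for the highest of these counts and from 13.8 to 33.3 for the lowest.

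Tagln encodes transgelin, an actin-binding protein of smooth muscle and myofibroblasts. Tagln (ENSMUSG00000032085, chromosome 9 from 45840917 to 45847356, minus strand) gave 17 and 16 counts under saline, against 17 and 11 under cmLumiOpto/PARPi. In CPM these are 1.07 and 1.09 against 0.979 and 0.662. Its fitted log2 fold change was -0.39 (standard error 0.53, adjusted p = 0.706, edgeR), from -0.70 without cmLumiOpto/PARPi replicate 1 to -0.16 without cmLumiOpto/PARPi replicate 2. The interval of 17 counts ran from 9.90 to 27.2, and that of 11 counts from 5.49 to 19.7. Of the 1988 exon bases of Tagln in GENCODE M21, 1241 (62.4%) also lie in exons of the antisense gene Gm48529 and 108 (5.43%) in those of Pcsk7. Gm48529 gave 7 and 13 counts under saline, against 11 and 13 under cmLumiOpto/PARPi. How reads in shared exons were counted is not given in the sources used here, so the level of Tagln is uncertain. Per kilobase, Acta2 stood 107 and 124 times above Tagln in the saline libraries and 104 and 129 times above it in the cmLumiOpto/PARPi libraries.

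Dcn and Lum encode decorin and lumican, small leucine-rich proteoglycans that bind collagen fibrils, and lie side by side on chromosome 10. Dcn (ENSMUSG00000019929, from 97315471 to 97354005, plus strand) had 126 and 92.9 CPM in the saline libraries and 90.6 and 61.3 CPM in the cmLumiOpto/PARPi libraries. The groups were apart by a narrow margin and overlapped when library size alone was used as the scaling. The log2 fold change of Dcn was -0.53 (standard error 0.24, adjusted p = 0.275, edgeR), from -0.84 without cmLumiOpto/PARPi replicate 1 to -0.30 without cmLumiOpto/PARPi replicate 2. Lum (ENSMUSG00000036446, from 97400990 to 97408565, plus strand) had 27.7 and 5.38 CPM in the saline libraries and 4.03 and 2.71 CPM in the cmLumiOpto/PARPi libraries. Most of its difference lay in saline replicate 1, which had 5.14 times the level of saline replicate 2. The log2 fold change of Lum was -2.29 (standard error 0.76, unadjusted p = 0.0248, adjusted p = 0.188, edgeR), and -0.69 without saline replicate 1.

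A ratio of 2 genes within a library does not depend on the scaling between libraries. Per kilobase, Dcn stood 48.8 and 44.1 times above Fap in the saline libraries and 47.7 and 44.9 times above it in the cmLumiOpto/PARPi libraries, so the groups overlapped. Dcn over Lum was 1.91 and 7.23 in the saline libraries, against 9.42 and 9.49 in the cmLumiOpto/PARPi libraries. Inmt over Acta2 was 0.707 and 0.117 in the saline libraries, against 5.15 and 1.56 in the cmLumiOpto/PARPi libraries. Inmt was thus the less abundant of the pair per kilobase in both saline libraries and the more abundant in both cmLumiOpto/PARPi libraries. Tcf21 over Fap was 3.25 and 1.04 against 27.5 and 9.53. The mean log2 CPM of the 5 resident genes minus that of the 3 activated genes was 1.10 and -0.41 in the saline libraries, against 3.17 and 2.40 in the cmLumiOpto/PARPi libraries. The difference between the group means of this balance was 2.44, and from 1.69 to 3.19 with any 1 library left out.

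**Figure D3:**
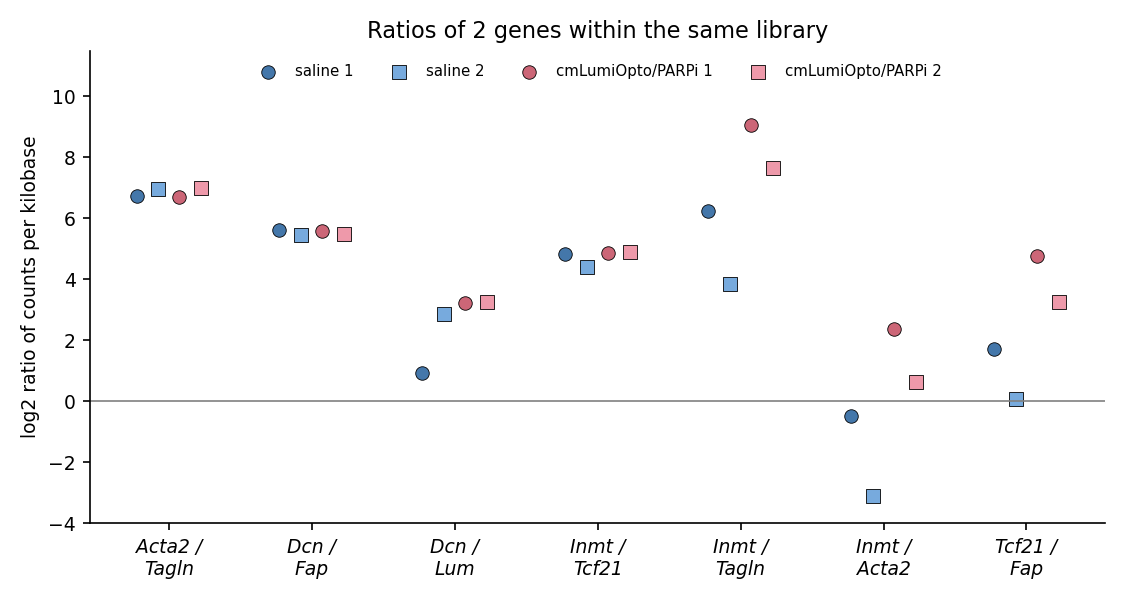
Ratio of counts per kilobase of 2 genes in the same library, on a log2 axis, with saline libraries in blue and cmLumiOpto/PARPi libraries in red. Acta2 over Tagln and Dcn over Fap have overlapping groups, and Inmt over Tagln, Inmt over Acta2 and Tcf21 over Fap are higher in both cmLumiOpto/PARPi libraries.

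Wider lists of mesenchymal genes were read beside the members, against a median log2 fold change of 0.02 over all genes tested. No gene of any list passed an adjusted p of 0.05 by edgeR. Counts at an unadjusted p under 0.05 stand against 9.21% of all tested genes higher and 12.0% lower. Of the 12 tested genes of alveolar fibroblasts, 2 had an unadjusted p under 0.05 in the higher direction and 1 in the lower, the latter near the share of all genes. The median log2 fold change was 0.85, and -0.11 without cmLumiOpto/PARPi replicate 1. Ces1d, a lipid hydrolase gene, had 24.3 and 3.82 CPM in the saline libraries and 178 and 51.6 CPM in the cmLumiOpto/PARPi libraries, the order seen for Inmt. Adh1, an alcohol and retinol dehydrogenase gene, had a log2 fold change of 1.75, with its highest saline library (8.47 CPM) just under its lowest cmLumiOpto/PARPi library (8.54 CPM). Tbx5, a transcription factor gene, had 1.05. Pdgfra and Npnt, a growth factor receptor gene and a basement membrane ligand gene, went the other way. Pdgfra had 212 and 243 CPM in the saline libraries and 132 and 144 CPM in the cmLumiOpto/PARPi libraries, and Npnt had 453 and 665 CPM against 350 and 412 CPM.

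Genes of adventitial fibroblasts, those around vessels and airways, were mixed. Of 13 tested, 5 were past an unadjusted p of 0.05 in the higher direction and 1 in the lower, against 9.21% and 12.0% of all genes. The median log2 fold change was 0.18, from 0.092 without cmLumiOpto/PARPi replicate 1 to 0.66 without saline replicate 1. Igfbp6, an IGF-binding protein gene, had 12.3 and 7.63 CPM in the saline libraries and 53.9 and 14.9 CPM in the cmLumiOpto/PARPi libraries. Pcolce2, a procollagen processing enhancer gene, and Ccl11, the eotaxin gene, had log2 fold changes of 0.66 and 1.35. Lower were Sfrp2, a Wnt modulator gene, with 13.7 and 33.8 CPM against 8.35 and 7.04 CPM, Serpinf1 with a log2 fold change of -0.69, and Col14a1 with -0.36.

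The list of activated fibroblast genes lay lower. This list was not checked to be specific to fibroblasts, and its gene Pdpn was also in the alveolar type 1 list. Of its 19 tested genes, 11 had an unadjusted p under 0.05 in the lower direction and 0 in the higher, against 12.0% and 9.21% of all genes, and DESeq2 passed 10, against 6.67%. In 14 genes both cmLumiOpto/PARPi libraries lay below both saline libraries and in 1 above, against 27.8% and 27.4% of all genes. The median log2 fold change was -0.72, and -1.20 without cmLumiOpto/PARPi replicate 2. Col1a1, the main fibrillar collagen gene, had 2064 and 1377 CPM in the saline libraries and 455 and 572 CPM in the cmLumiOpto/PARPi libraries. Col5a1, which encodes a collagen that starts fibrils, had 369 and 362 CPM against 141 and 151 CPM. Col12a1, a fibril-associated collagen gene, had 105 and 135 CPM against 38.1 and 40.9 CPM. All 3 collagen genes had an adjusted p of 0.138 by edgeR. The gene of the list that was higher without overlap was Thy1, a surface glycoprotein gene, with 35.4 and 35.8 CPM against 44.0 and 38.3 CPM.

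The contractile list, mostly genes like Acta2 and Tagln in role but also the signaling gene Hhip, centred near 0. Of its 13 tested genes, 1 had an unadjusted p under 0.05 in the higher direction and 2 in the lower, both near the shares of all genes (9.21% and 12.0%). Hhip was 1 of the 2 lower genes. Its median log2 fold change was 0.04, and -0.20 without cmLumiOpto/PARPi replicate 1. Lmod1, a leiomodin gene, had 1.19 and 1.16 CPM in the saline libraries and 2.99 and 2.89 CPM in the cmLumiOpto/PARPi libraries. Actg2 and Myl9, a smooth muscle actin and a myosin light chain gene, had log2 fold changes of 0.45 and 0.26 with groups apart, while those of Cald1, the caldesmon gene, and Hhip, a hedgehog antagonist gene, were -0.47 and -0.42. Among 10 pericyte genes, 3 were past an unadjusted p of 0.05 in the higher direction and 0 in the lower, against the same shares. These 3 were Higd1b, with 3.76 and 2.11 CPM against 11.0 and 7.64 CPM, Cox4i2, with 3.95 and 2.52 CPM against 16.0 and 6.20 CPM, and Rgs5, with 7.71 and 4.50 CPM against 13.7 and 11.2 CPM. Cspg4, the NG2 proteoglycan gene, was lower without overlap at a log2 fold change of -0.52. The median log2 fold change of the pericyte genes was 0.37, with 0.18 without saline replicate 2 and 0.21 without cmLumiOpto/PARPi replicate 2.

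Dcn and Lum were set beside 12 other genes of small leucine-rich proteoglycans, of which 7 had enough counts to test. Of these 7, 2 had an unadjusted p under 0.05, both higher, against 9.21% of all genes higher and 12.0% lower. Their median log2 fold change was 1.56, and 0.21 without cmLumiOpto/PARPi replicate 1. Chad, the chondroadherin gene, had 0.376 and 0.341 CPM in the saline libraries and 2.42 and 1.81 CPM in the cmLumiOpto/PARPi libraries. Aspn, the asporin gene, had 1.25 and 1.36 CPM against 6.97 and 3.37 CPM. Podn, the podocan gene, had 4.95 and 6.61 CPM against 27.2 and 6.74 CPM. Bgn, the biglycan gene and the largest part of the list's summed CPM, was picked after its values were seen and had 454 and 263 CPM against 273 and 208 CPM, with overlapping groups and a log2 fold change of -0.58. The summed level of the list was 485 and 281 CPM against 386 and 236 CPM, also overlapping.

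**Figure D4:**
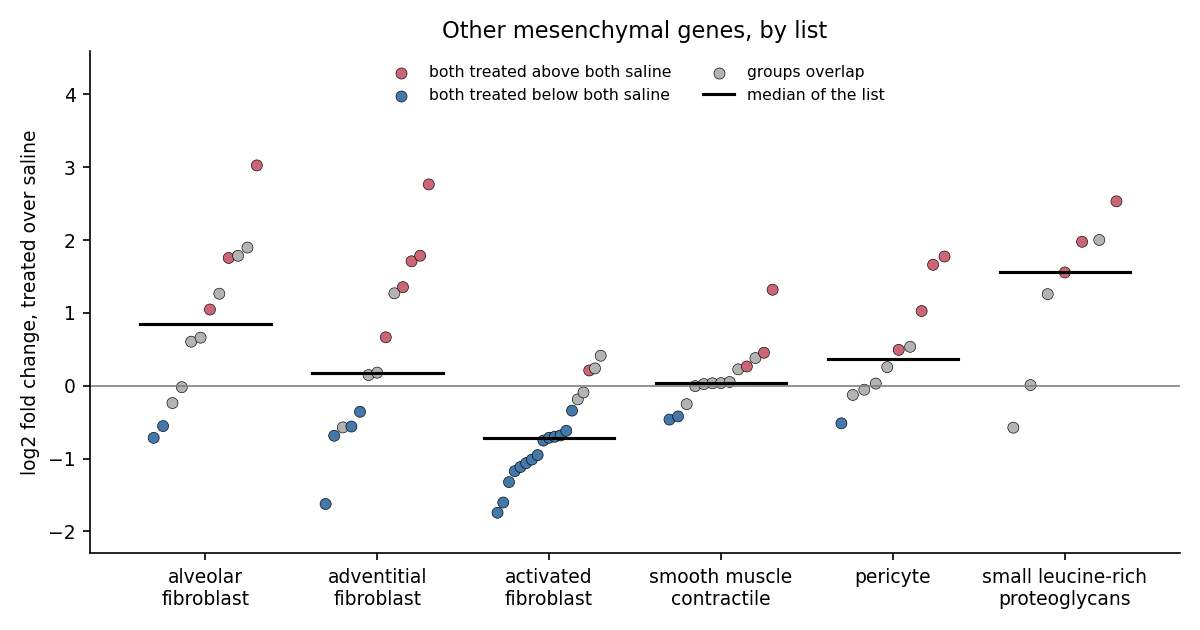
Fitted log2 fold change between cmLumiOpto/PARPi and saline of every tested gene of 6 lists, with 1 point per gene, coloured by whether the groups overlap, and a bar at each list's median. Most of the 19 activated fibroblast genes lie below 0, and the contractile genes centre at 0.04.

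By mean log2 CPM, alveolar and airway markers stood in the same order across the libraries as the resident genes. Endothelial, mesothelial and leukocyte markers did not. Tumour epithelial markers did, but their order rested on Krt5, a gene too low to test. The labels call the material 4T1 tumour cells taken from lungs and the study's methods call it lung tissue with metastasis. Genes of the tumour epithelial list and of the lung cell lists had counts in every library. The tumour list holds epithelial genes and was not checked to be specific to tumour cells. The mean log2 CPM of the 5 resident genes was 3.98 and 2.46 in the saline libraries, against 5.81 and 4.64 in the cmLumiOpto/PARPi libraries. Of 9 alveolar type 2 genes, 7 were higher without overlap and 2 lower, and the range of their summed level was 545 to 1811 CPM under saline and 3039 to 8394 CPM under cmLumiOpto/PARPi. All 8 airway genes were higher without overlap, at 3.94 and 1.81 against 6.38 and 6.09. Alveolar type 1 genes stood at 5.30 and 4.31 against 6.51 and 5.57, with 5 of 8 higher without overlap, and endothelial genes at 5.07 and 4.35 against 6.07 and 4.65, with 3 of 10. Over all tested genes 27.4% were higher without overlap, which is near the endothelial count. For the resident genes and for these lists, saline replicate 2 was the lowest library and cmLumiOpto/PARPi replicate 1 the highest. The same held for the mean log2 CPM of the tumour epithelial and leukocyte lists, so it was not particular to these lung cells. The 9 genes of the tumour epithelial list had a summed level of 3004 and 3609 CPM in the saline libraries and 2858 and 4177 CPM in the cmLumiOpto/PARPi libraries, with overlapping groups, while its mean log2 CPM was 6.06 and 5.80 against 6.59 and 6.32. Krt5 was the 1 marker of these lists at 0 in a library (saline replicate 2). The mean log2 CPM of mesothelial genes was 4.27 and 4.25 against 5.34 and 3.82, and that of leukocyte genes 5.56 and 4.59 against 5.69 and 5.35. Relative to the alveolar type 2 genes, the resident genes stood at -2.70 and -2.75 in the saline libraries, against -2.40 and -2.42 in the cmLumiOpto/PARPi libraries, as a difference of mean log2 CPM, so the gap between groups was 0.31 where it was 2.01 for the resident genes alone. That gap was 0.78 relative to the alveolar type 1 genes, 1.36 relative to the endothelial genes and 1.49 relative to the tumour epithelial genes. Relative to the airway genes it was -1.35, the resident genes then being lower after treatment. The part of these markers in the difference of the resident genes was not tested.

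**Figure D5:**
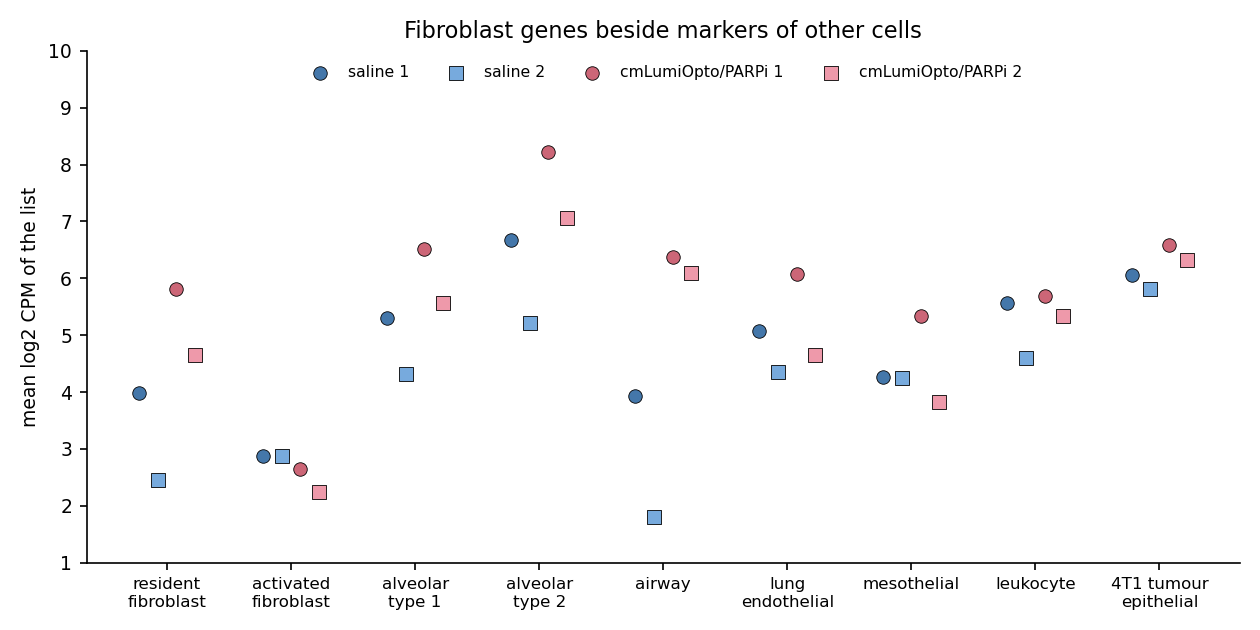
Mean log2 CPM over the genes of each list in each library, for the 5 resident and 3 activated fibroblast genes and for marker lists of 7 other cell types. Saline replicate 2 is lowest and cmLumiOpto/PARPi replicate 1 highest in the resident, alveolar, airway, endothelial, leukocyte and tumour epithelial lists. That does not hold in the activated and mesothelial lists. In the tumour epithelial list the highest place rests on Krt5, a gene too low to test.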

How the data were processed

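The deposited table held counts of reads per gene, which the authors made from HISAT2 alignments and deposited without normalization. The counter and the annotation are not given in the sources used here. The study's methods name GRCm38, and the submitters' processing notes list mm39. The gene length used for values per kilobase was that of the deposited table. Saline was compared with cmLumiOpto/PARPi, 2 libraries each, in edgeR 4.0.16 (TMM scaling, filterByExpr at a minimum count of 10, then glmQLFit and glmQLFTest at their defaults, Benjamini-Hochberg adjustment over 15167 genes, threshold 0.05). CPM used the TMM factors, and log2 CPM a prior count of 2. Standard errors were taken from the F statistic, as |log2 fold change| over √F. DESeq2 1.42.0, which left the adjusted p of 2059 genes undefined, was an alternative. Others were DESeq2's size factors, library size only, no filter, the fit without the legacy option, the replicate number as a block, and leaving out each library. Exon overlap came from GENCODE M21 and promoters from RefSeq. All 10 members were named, and from each wider list up to 3 genes in each direction with the smallest p among those whose groups did not overlap. The members and lists were chosen with earlier results of these data known. The ratios Inmt over Acta2, Inmt over Tcf21, Inmt over Mfap4, Tcf21 over Mfap4 and Tcf21 over Fap were chosen after their values were seen. So was the CArG search with 1 mismatch.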

Additional observations from a re-analysis of the deposited data

How the results depend on the processing

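All 10 members kept their direction under all 10 alternatives. Where the groups of a member do not overlap, leaving out 1 library cannot reverse its direction. The other alternatives refit the same libraries, so none of them tests the direction on new data. None passed an adjusted p of 0.05 with DESeq2's size factors, with library size only, without the legacy option, or with any 1 library left out. Without the filter on low counts 2000 genes passed, with 7 members and 20 higher and 16 lower genes of the wider lists. With DESeq2 1011 genes passed, with 3 members and 4 higher and 12 lower genes of those lists. Replicate numbers are shared between the groups but the mice differ. The deviations of same-numbered libraries from their group means had a Spearman's rho of 0.298 over 15167 genes, which are not independent of each other. A block on replicate number let 1822 genes pass, with 6 members (Tcf21, Inmt, Mfap4, Dpt, Dcn and Lum) and 13 higher and 13 lower genes of the wider lists. The cause of these differences in count was not tested.

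With any 1 library left out, 0 to 31 genes passed, 0 to 2 of the wider lists lower, and 4 to 5 members were higher without overlap. The median log2 fold change then ranged from -0.11 to 1.30 for alveolar fibroblast genes, 0.092 to 0.66 for adventitial, -1.20 to -0.68 for activated, -0.20 to 0.18 for contractile, 0.18 to 0.48 for pericyte and 0.21 to 2.21 for proteoglycan genes. The alveolar and contractile medians turned negative without cmLumiOpto/PARPi replicate 1, at -0.11 and -0.20. Depth limits Fap and Tagln, which had 11 to 40 counts.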

Other observations

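Genes of the lists that were too low to test were looked at after their values were seen. Slc7a10, an amino acid transporter gene of alveolar fibroblasts, had 0 counts in both saline libraries and 42 and 4 counts in the cmLumiOpto/PARPi libraries. Omd, the osteomodulin gene, had 1 and 1 counts against 8 and 8. Kera and Epyc, proteoglycan genes of cornea and cartilage, had 0 counts in every library. Myocd, the smooth muscle coactivator gene, had 1 and 5 counts against 2 and 4.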
